A study of Mus musculus with 30 samples.

Results

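The genes of oxidative phosphorylation encode the enzyme complexes of the inner mitochondrial membrane, and most lie in the nucleus while a few lie on mitochondrial DNA. The members were the protein-coding genes whose symbols begin with Nduf, Uqcr, Cox4 to Cox8 or Atp5, the Sdha, Sdhb, Sdhc and Sdhd genes, and the 13 mitochondrially encoded protein genes, whose symbols begin with mt-. The rule found 106 members, 93 of them nuclear and 13 mitochondrial. It used symbols alone and no measured value.

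The study sequenced messenger RNA from the ventral prostate (VP) of C57BL/6 mice fed diets whose fat was linseed oil (LO), soybean oil (SO) or pork fat (PF). Diets were given for 12 or 32 weeks. Each of the 6 diet-by-time groups held 5 mice, numbered 1 to 5, with 1 library a mouse and 30 libraries in all. No allele or other agent was named, the labels gave no age, and every mouse received a test diet, so no group stood for standard chow. Age and any batch of collection or sequencing cannot be told apart from time on the diet.

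Complex I, which takes electrons from NADH, and complex II, which takes them from succinate, pass electrons through ubiquinone to complex III, and cytochrome c carries them on to complex IV, where oxygen is reduced. Complexes I, III and IV move protons across the membrane, and complex V, the ATP synthase, uses the return flow to make ATP. All the complexes but complex II hold subunits from both genomes, and the prostate is known for secreting citrate in place of oxidising it in full.

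Total counts per library ranged from 27590631 to 41301707, with a median of 33684704. Reads that fell in no annotated gene made up 6.67 to 12.2% of the counted alignments, those that fell in more than 1 gene 0.831 to 1.18%, and those with several alignments 16.0 to 20.3%. The nuclear members took 0.605 to 0.994% of a library's gene counts and the mitochondrial members 3.86 to 6.52%. The tissue label was checked against 4 genes of VP secretion (Spink1, Sbp, Msmb and Mme), whose summed level ranged from 103625 to 335341 CPM, counts scaled to a common library size, over the 30 mice. Sbp, the most abundant gene in the table, held 16.8% of all counts. The 5 seminal vesicle markers summed to at most 0.276 CPM and the 3 testis germ cell markers to at most 0.286 CPM, so both lists were at or near 0 in every library.

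Some libraries stood apart from the rest of their group. PF mouse 1 at 32 weeks had a summed nuclear level of 10256 CPM, while the other 4 mice of its group lay between 6854 and 7452. Its nuclear members were a median of 0.56 log2 units above the mean of those 4 mice, its share of reads in no gene was the lowest of all libraries at 6.67%, and its mitochondrial sum was in the range of its group at 47340 CPM. SO mouse 4 at 32 weeks had the highest mitochondrial sum, 60218 CPM, beside 43402 to 49928 in the other 4 mice of its group. The mice numbered 1 shared a further pattern in all 6 groups, given with its genes later. Several results that include these libraries are given with and without them.

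Levels are in CPM scaled by edgeR's TMM factors, which set libraries on a common scale by their bulk of genes, and a fold change is on the log2 scale. The summed nuclear level averaged 6757 ± 328 CPM (SD, n = 5) in LO mice at 12 weeks, 7202 ± 444 in SO mice and 7172 ± 447 in PF mice. At 32 weeks it averaged 7001 ± 356 CPM in LO mice, 6798 ± 320 in SO mice and 7688 ± 1456 in PF mice. All 6 group means lay within 1 SD of the widest group, and that width came from PF mouse 1. The other 4 PF mice had an SD of 279 CPM. At 12 weeks the gaps from the LO mean to the SO and PF means were wider than the SD of the LO mice. In bulk tissue, fewer cells of a type and less RNA per cell cannot be told apart, and this holds for every level given here.

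The summed mitochondrial level averaged 44982.5 ± 2079 CPM in LO, 48398 ± 2967 in SO and 47581 ± 5564 in PF mice at 12 weeks. It averaged 43942.5 ± 4990 CPM in LO, 48322 ± 7167 in SO and 48772 ± 3298 in PF mice at 32 weeks. The LO mean was the lowest at both times on this scale. At 12 weeks its gap to the SO mean was wider than the SD of either group, and at 32 weeks narrower than the SD of the LO mice. The scale matters for these sums. With CPM of library totals and no TMM factor, the nuclear means were 6576, 6723 and 6857 CPM for LO, SO and PF at 12 weeks. On that scale they were 7683, 7277 and 7519 CPM at 32 weeks, so that every diet was higher at the later time, which the TMM scale showed for LO and PF and not for SO. The PF rise on the TMM scale rests on PF mouse 1, since the other 4 PF mice averaged 7045 CPM at 32 weeks, below the PF mean at 12 weeks. The mitochondrial means on library totals were 48081 CPM in LO, 51740.2 in SO and 47748 in PF mice at 32 weeks, so LO was then not the lowest. The 10 most abundant genes took 24.7 to 35.2% of counts at 12 weeks and 18.3 to 33.6% at 32 weeks, a share that enters library totals and that TMM factors are meant to discount.

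The mitochondrial sum divided by the nuclear sum needs no scaling between libraries. Its median was 6.81 in LO, 6.60 in SO and 6.60 in PF mice at 12 weeks, and 5.98, 6.97 and 6.91 in the same order at 32 weeks. The 5 LO mice at 32 weeks had ratios of 5.90, 5.98, 5.87, 6.78 and 6.80 and the 5 LO mice at 12 weeks 5.97, 6.81, 6.95, 6.81 and 6.80. The ranges of these groups overlapped, with 3 of the ratios at 12 weeks above every ratio at 32 weeks. The lowest ratio of all libraries was 4.62 in PF mouse 1 at 32 weeks, which had the highest nuclear sum, and the highest was 9.14 in SO mouse 4 at 32 weeks.

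**Figure D1:**
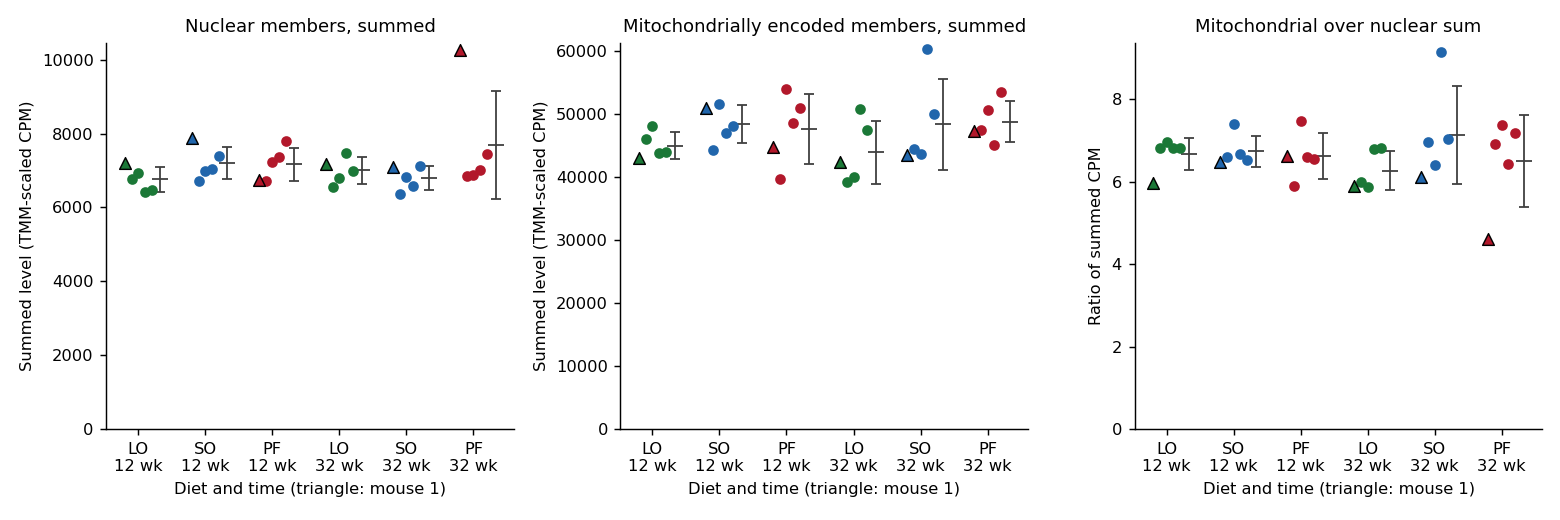
Summed level of the nuclear members and of the mitochondrially encoded members in TMM-scaled CPM, and their ratio, by diet and time, with 1 point a mouse, mouse 1 as a triangle, and bars for the mean and SD of 5 mice. PF mouse 1 at 32 weeks sits alone at 10256 CPM for the nuclear sum and at 4.62 for the ratio, and SO mouse 4 at 32 weeks has the highest mitochondrial sum.

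Complex I had 38 nuclear subunit genes. Their summed level was 1845 ± 146 CPM in LO, 1990.2 ± 174 in SO and 1980 ± 103 in PF mice at 12 weeks, and 1906 ± 121, 1863 ± 122 and 2152 ± 510 in the same order at 32 weeks. Levels of different genes were compared per kilobase of merged exons. On that scale Ndufa1, a small membrane-arm subunit, was highest at 234 CPM per kilobase over all mice and Ndufa4l2 lowest at 0.573. Ndufa4, whose product is now counted with complex IV, stood at 95.9 CPM per kilobase, so its relative Ndufa4l2, known as a gene induced by low oxygen, was close to the floor of the data. The 8 assembly factors, proteins that build complex I and do not stay in it, ranged from 8.44 CPM per kilobase for Ndufaf1 to 2.14 for Ndufaf6. Their sums were 83.5 ± 7.5, 85.1 ± 6.3 and 83.8 ± 3.1 CPM in LO, SO and PF mice at 12 weeks and 82.0 ± 6.1, 80.04 ± 5.1 and 92.4 ± 19.0 at 32 weeks.

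Complex II is succinate dehydrogenase and has 4 genes, all nuclear. Its flavoprotein gene Sdha was highest per length at 62.0 CPM per kilobase and the iron-sulphur gene Sdhb lowest at 26.1. Its summed level was 476 ± 23 CPM in LO, 481 ± 18 in SO and 476 ± 40 in PF mice at 12 weeks, and 475 ± 27, 459 ± 9.98 and 495 ± 38 at 32 weeks. The median within-group SD of the 4 genes was 0.109 log2 units, from 0.08 for Sdhc to 0.20 for Sdhb, beside 0.178 for all members tested and 0.209 for all 16605 genes tested.

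Complex III had 8 nuclear genes, from the hinge protein gene Uqcrh at 141 CPM per kilobase to Uqcrq, a small subunit, at 14.96. Their summed level was 695 ± 43 CPM in LO, 725 ± 56 in SO and 732 ± 42 in PF mice at 12 weeks, and 722 ± 36, 691 ± 30 and 786 ± 156 at 32 weeks. Cytochrome c1, the remaining subunit, has the symbol Cyc1 and so is not a member by the rule.

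Complex IV had 18 nuclear genes and the widest range of levels. Cox8a was highest at 204.5 CPM per kilobase, followed by Cox6b1 at 166, Cox4i1 at 164, Cox7a2l at 160.4 and Cox6a1 at 112. The forms known from heart, skeletal muscle, brown fat, lung or testis lay far lower, with Cox6b2 at 2.32 CPM per kilobase, Cox8b at 2.13, Cox7a1 at 1.86, Cox6a2 at 0.596, Cox4i2 at 0.375, Cox8c at 0.0378 and Cox7b2 at 0.0125. Each was lower than the widespread form of the same subunit. The summed complex IV level was 1209 ± 84 CPM in LO, 1314 ± 118 in SO and 1282 ± 96 in PF mice at 12 weeks, and 1259.5 ± 93, 1219 ± 96 and 1439 ± 381 at 32 weeks.

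Complex V had 17 nuclear genes. The catalytic subunit gene Atp5b led at 175 CPM per kilobase, with Atp5a1 also at 175 and Atp5s lowest at 4.79. The 3 genes that encode the same mature subunit c were at 63.1 for Atp5g3, 25.7 for Atp5g2 and 14.1 for Atp5g1, also in CPM per kilobase. The summed level was 2448 ± 77 CPM in LO, 2607 ± 94 in SO and 2618 ± 208 in PF mice at 12 weeks, and 2556 ± 101, 2487 ± 80 and 2723 ± 355 at 32 weeks. For complexes I to V the nuclear sums of PF mice at 32 weeks had the highest mean of the 6 groups, and each of these means included PF mouse 1. Over the other 4 PF mice the means were 1927 CPM for complex I subunits, 479.8 for complex II, 717 for complex III, 1271 for complex IV and 2567 for complex V, and another group was then higher for each. On library totals, LO mice at 32 weeks were higher than PF mice for complexes II, III and V.

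Of the 13 mitochondrial members, 11 lay above every nuclear one per length. mt-Co1, a core subunit of complex IV, was at 10077 CPM per kilobase over all mice, mt-Co2 at 7578 and mt-Co3 at 7127. mt-Atp6 of complex V was at 6120 and mt-Cytb of complex III at 4508 CPM per kilobase. Of the complex I subunits, mt-Nd1 was at 2591, mt-Nd4 at 2576, mt-Nd2 at 1646, mt-Nd5 at 1584 and mt-Nd3 at 1216. The short mt-Atp8, which overlaps mt-Atp6, was at 1234, the light-strand gene mt-Nd6 at 64.1, and mt-Nd4l, which overlaps mt-Nd4, at 0.0852 CPM per kilobase. mt-Nd4l had 0 to 4 counts in every library. The strand setting of the counting is not known, and the part of strand, of overlaps and of reads with several alignments in these levels was not tested.

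mt-Co1 led in each of the 6 groups. Over the 12 mitochondrial members tested the median range of group means was 0.255 log2 units, beside a median within-group SD of 0.175. Group means of mt-Co1 ran from 9489 CPM per kilobase in LO mice at 32 weeks to 10426 in PF mice at 32 weeks, and those of mt-Cytb from 4133 in LO mice at 32 weeks to 4866 in SO mice at 12 weeks. The complex I genes of mitochondrial DNA summed to 10783 ± 672 CPM in LO, 11736 ± 532 in SO and 11267 ± 1274 in PF mice at 12 weeks, and 10269 ± 1089, 11541 ± 1967 and 10905 ± 1335 at 32 weeks. The 3 complex IV genes summed to 25098 ± 1091, 26574 ± 2029 and 26835 ± 3224 CPM at 12 weeks and 24792.5 ± 2848, 26708 ± 3132 and 28030 ± 1845 at 32 weeks, in the same order of diets. The 2 complex V genes summed to 4135 ± 213, 4522 ± 311 and 4405 ± 504 CPM at 12 weeks and 4153 ± 459, 4660 ± 821 and 4642 ± 388 at 32 weeks. In these sums LO had the lowest mean of the 3 diets at either time on the TMM scale.

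**Figure D2:**
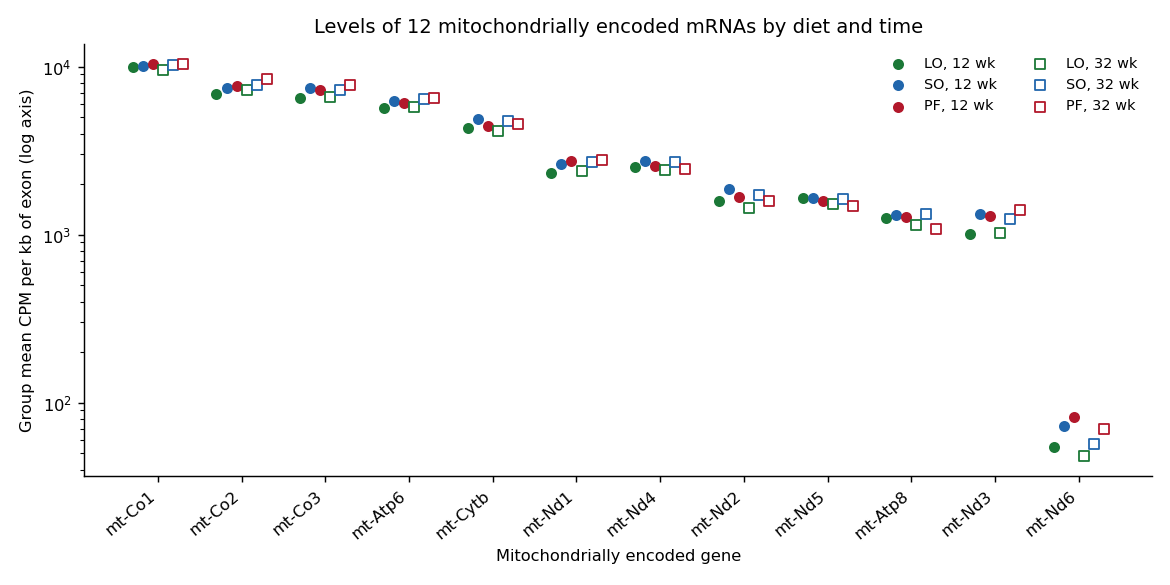
Level of 12 mitochondrially encoded genes in TMM-scaled CPM per kilobase on a log axis, by diet and time. mt-Co1 leads and mt-Nd6 is lowest of the 12 in each group, and the group means of mt-Co1 lie between 9489 and 10426.

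Promoters are shown for the genes the results turn on, pairs of a widespread and a tissue-limited form of complex IV first. The sequences, from RefSeq on build GRCm38.p6, run from 250 bases before to 50 bases after the start of transcription, 5′ to 3′ on the strand of the gene. Cox6a1 lies on the minus strand at chr5:115348909-115349208, Cox7a2 on minus at chr9:79759804-79760103, Cox7a1 on plus at chr7:30183921-30184220, Cox8a on minus at chr19:7217567-7217866, Cox8b on minus at chr7:140900397-140900696 and Uqcrfs1 on minus at chr13:30545267-30545566. Capitals mark matches, on either strand, to GCGCANGCG (NRF1), CCGGAAG (ETS factors such as GABP), AAGATGGCG (YY1), TCAAGGTCA (ERR) and TATAAA.
Cox6a1: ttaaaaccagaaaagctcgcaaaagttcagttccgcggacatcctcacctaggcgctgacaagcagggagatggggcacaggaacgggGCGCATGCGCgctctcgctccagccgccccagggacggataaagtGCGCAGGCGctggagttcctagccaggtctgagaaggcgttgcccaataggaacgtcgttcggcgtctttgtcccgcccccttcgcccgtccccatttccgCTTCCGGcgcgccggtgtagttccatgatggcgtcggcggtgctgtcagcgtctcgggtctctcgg
Cox7a2: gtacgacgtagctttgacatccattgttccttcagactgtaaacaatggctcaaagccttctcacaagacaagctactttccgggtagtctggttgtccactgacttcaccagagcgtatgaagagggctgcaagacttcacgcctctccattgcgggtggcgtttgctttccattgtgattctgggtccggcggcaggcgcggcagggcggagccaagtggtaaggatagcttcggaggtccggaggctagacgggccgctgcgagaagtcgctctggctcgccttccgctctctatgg
Cox7a1: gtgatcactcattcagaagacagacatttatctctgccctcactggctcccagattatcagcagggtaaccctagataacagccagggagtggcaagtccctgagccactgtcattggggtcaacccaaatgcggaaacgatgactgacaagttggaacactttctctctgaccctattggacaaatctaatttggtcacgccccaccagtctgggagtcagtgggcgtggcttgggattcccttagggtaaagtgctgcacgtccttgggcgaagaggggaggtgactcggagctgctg
Cox8a: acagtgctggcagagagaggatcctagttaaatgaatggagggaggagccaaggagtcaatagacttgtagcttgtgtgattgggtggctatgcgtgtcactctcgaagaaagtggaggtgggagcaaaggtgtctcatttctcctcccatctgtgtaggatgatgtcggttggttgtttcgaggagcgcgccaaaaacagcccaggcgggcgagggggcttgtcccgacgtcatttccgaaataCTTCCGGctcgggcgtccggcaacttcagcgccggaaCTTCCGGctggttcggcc
Cox8b: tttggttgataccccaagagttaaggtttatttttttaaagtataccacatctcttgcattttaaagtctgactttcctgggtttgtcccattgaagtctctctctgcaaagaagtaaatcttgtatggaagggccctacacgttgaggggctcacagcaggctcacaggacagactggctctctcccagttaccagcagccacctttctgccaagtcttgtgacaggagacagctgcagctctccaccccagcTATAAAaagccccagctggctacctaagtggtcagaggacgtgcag
Uqcrfs1: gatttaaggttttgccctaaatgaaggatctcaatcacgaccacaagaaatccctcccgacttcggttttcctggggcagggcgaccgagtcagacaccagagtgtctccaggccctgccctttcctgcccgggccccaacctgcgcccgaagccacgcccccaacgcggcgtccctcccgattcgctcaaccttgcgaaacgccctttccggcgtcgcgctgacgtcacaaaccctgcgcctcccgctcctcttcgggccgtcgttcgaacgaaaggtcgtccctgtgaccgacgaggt

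The Cox6a1 window held GCGCATGCG and, overlapping it by all but 1 base, CGCATGCGC, which is a match on the other strand. It also held GCGCAGGCG and CTTCCGG, the ETS letters read on the other strand. Cox8a held CTTCCGG in 2 places, and its tissue-limited relative Cox8b held TATAAA and none of the other letters. The windows of Cox7a2, Cox7a1 and Uqcrfs1 held none of them. Of the 93 nuclear members, 74 had a window in the table. GCGCANGCG was found in 22 of the 74 (29.7%) and in 7.03% of 27025 genes with a window. CCGGAAG was found in 18 (24.3%) beside 9.93% of those genes, AAGATGGCG in 8 (10.8%) beside 1.64%, TCAAGGTCA in 2 (2.70%) beside 0.466%, and TATAAA in 7 (9.46%) beside 15.7%. A match is a description of letters in the window, no test was made of these shares, and 31 of the 74 held none of the motifs. Among the members with no window in the table were Cox4i1, Cox4i2, Cox6a2, Cox6c, Cox8c, Uqcrq, Uqcrb, Uqcrc2, Sdhc, Ndufa2, Ndufa4l2, Ndufaf6, Ndufb9, Ndufs1, Atp5a1, Atp5f1, Atp5mpl and Atp5s.

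Diets were compared within each time point to ask which genes depend on the source of fat. Of the 106 members, 101 passed the filter on low counts at 12 weeks and 103 at 32 weeks. mt-Nd4l, Cox7b2 (0 to 1 counts a library) and Cox8c (0 to 3 counts) passed at neither time, and Cox4i2 and Cox6a2 did not pass at 12 weeks. The tests ran over 15873 genes at 12 weeks and 16218 at 32 weeks, and a gene was called at a Benjamini-Hochberg adjusted p under 0.05.

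In PF against SO mice at 12 weeks, edgeR's quasi-likelihood test with Benjamini-Hochberg adjustment called 0 of the 101 members and 0% of all genes. At an unadjusted p under 0.05 there was 1 member, beside 7.99% of all genes, and DESeq2 called 0 members, with 1 under 0.05 unadjusted, and 1.31% of all genes. The groups overlapped for every member, while 1.57% of all genes had groups that did not overlap. The nuclear members had a median fold change of -0.0034 and the mitochondrial ones of -0.03, beside -0.01 for all genes. The member with the smallest p was Ndufa4l2, at 1.37, 0.616, 1.26, 0.856 and 0.376 CPM in PF mice 1 to 5 and 0.771, 0.246, 0.296, 0.459 and 0.523 in SO mice. The 3 highest values were in PF mice, and the groups overlapped. Its fold change was 0.96 (SE 0.35, p 0.015, adjusted p 0.389 by edgeR). Next were Ndufb3 at 0.11 among those higher in PF mice and Ndufb2 at -0.20 and mt-Nd2 at -0.16 among those lower. Leaving out every mouse numbered 1 moved the nuclear median to 0.06.

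At 12 weeks PF mice were also compared with LO mice. edgeR's quasi-likelihood test called 0 of 101 members after Benjamini-Hochberg adjustment and 0% of all genes. Under an unadjusted p of 0.05 were 9 members, all higher in PF mice, beside 9.24% of all genes, and DESeq2 called 0, with 9 under 0.05, and 0.522% of all genes. No member had groups that did not overlap, beside 1.59% of all genes. The nuclear members were higher in PF mice for 80 of 89 tested, with a median of 0.11, and the mitochondrial ones for 11 of 12, with a median of 0.08. The median of all genes stayed between -0.0148, in PF against SO mice at 12 weeks, and 0.0061, in PF against LO mice of 32 weeks, over the 12 comparisons. By complex the nuclear medians were 0.12 for complex I subunits, 0.05 for its assembly factors, 0.02 for complex II, 0.09 for complex III, 0.10 for complex IV and 0.12 for complex V. Without the mice numbered 1 the nuclear median was 0.16 and 35 of 90 nuclear members were under 0.05 unadjusted, beside 11.05% of all genes in the same fit. Over all settings run the nuclear median lay between 0.06, without the mice numbered 5, and 0.16. The median SE of a single nuclear member was 0.09, about as large as these medians.

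In LO against SO mice at 12 weeks, 0 of 101 members and 0% of all genes were called by edgeR's quasi-likelihood test and Benjamini-Hochberg adjustment, with 5 members and 4.28% of all genes under 0.05 unadjusted. DESeq2 called 0 members, with 7 under 0.05, and 0% of all genes. The nuclear median was -0.10, with 9 of 89 higher in LO mice, and the mitochondrial median -0.15, with 1 of 12 higher. mt-Nd3 was at 349, 352, 389, 349.7 and 322 CPM in LO mice 1 to 5, at 478, 412, 500.3, 400.06 and 514 in SO mice and at 377, 397, 546, 492 and 444 in PF mice. All 5 LO values lay below all 5 SO values, while PF mouse 1 lay in the range of the LO mice. Its fold change was -0.39 for LO against SO (SE 0.10, p 0.0019, adjusted p 0.999 by edgeR) and 0.36 for PF against LO (SE 0.10, p 0.0030, adjusted p 0.366). These comparisons share the LO mice. Ndufa1 was next at -0.23 for LO against SO (SE 0.07, p 0.0033).

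In LO against SO mice at 12 weeks, 3 of the 101 members tested had groups that did not overlap, beside 0.731% of all genes. They were mt-Nd3, Cox6b1 and Sdhc. Cox4i2, which did not pass the filter at that time, was also lower in every LO mouse, as given later. Sdhc, chosen after its values were seen and a membrane anchor of complex II, was at 83.4, 85.9, 86.9, 81.9 and 81.0 CPM in LO mice and 89.4, 87.2, 91.7, 88.5 and 89.5 in SO mice. The highest LO value was just under the lowest SO value. Cox6b1, a subunit that faces the space between the membranes, was at 106, 108, 107, 103 and 106 CPM in LO mice and 124, 116, 117, 114 and 123 in SO mice. The LO mice were again the lower group and hardly varied. Its fold change was -0.16 (SE 0.07, p 0.029, adjusted p 0.999 by edgeR).

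At 32 weeks the largest shift of the nuclear members among the diet comparisons was in PF against SO mice. edgeR's quasi-likelihood test called 0 of 103 members after Benjamini-Hochberg adjustment, as it did 0% of all genes. Under 0.05 unadjusted were 21 members (20.4%), all nuclear and higher in PF mice, beside 10.8% of all genes, and DESeq2 called 0, with 24 under 0.05, and 0.726% of all genes. The nuclear members were higher in PF mice for 89 of 91, with a median of 0.22, beside -0.003 for all genes. The medians by complex were 0.25 for complex I subunits, 0.22 for its assembly factors, 0.13 for complex II, 0.25 for complex III, 0.24 for complex IV and 0.22 for complex V. The mitochondrial members were higher for 7 of 12, with a median of 0.04. The median was -0.04 when the 10 most abundant genes were left out of the fit. Those genes include mt-Co1, mt-Co2, mt-Co3 and mt-Cytb, so that median covers fewer members and is not a change of scaling alone. Without PF mouse 1 the nuclear median was 0.05, with 59 of 91 higher and 10 under 0.05 unadjusted, beside 9.37% of all genes in that fit. The medians by complex were then 0.06, -0.04, 0.02, 0.02, 0.03 and 0.09 in the order given. Without SO mouse 4 the mitochondrial median was 0.13, with 9 of 12 higher.

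In the same comparison the summed red blood cell markers had a higher mean in PF mice, though PF mouse 5 lay in the range of the SO mice. All 5 genes of that list matched, with Hbb-bs the most abundant and none at 0, and their sums at 32 weeks were 140.009, 129, 216, 499.7 and 42.4 CPM in PF mice 1 to 5, 78.7, 26.9, 33.8, 31.6 and 34.1 in SO mice and 143, 51.0, 57.0, 49.1 and 74.5 in LO mice. In PF against SO mice 5 of 5 were higher, with a median of 2.48, all 5 under 0.05 unadjusted and 0 called, and without PF mouse 1 the median was 2.503. They were also higher in PF against LO mice, with a median of 1.43, and in PF mice over time, with a median of 2.04, and 0 were called. The adipocyte list summed to 104, 184, 9.20, 51.1 and 149.8 CPM in PF mice and 13.7, 7.35, 48.0, 4.08 and 93.7 in SO mice at 32 weeks. Of its 4 genes tested in PF against SO mice 3 were higher, with a median of 1.81 and 0 called. The lists of VP secretion, basal and smooth muscle genes had smaller medians. In PF against SO mice 3 of 4 genes of VP secretion were higher, with a median of 0.35, and 0 of 4 basal and 0 of 6 smooth muscle genes, with medians of -0.20 and -0.10. In PF against LO mice these were 4 of 4 (0.44), 0 of 4 (-0.58) and 0 of 6 (-0.05), and 0 genes of these lists were called in either comparison. Without PF mouse 1 the 3 medians were 0.27, -0.30 and -0.27 against SO and 0.43, -0.71 and -0.27 against LO. The part of these markers in the shift of the nuclear members was not tested.

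Uqcrfs1, the iron-sulphur subunit of complex III, had the smallest p of the members in PF against SO mice at 32 weeks. It was at 149, 109, 118, 114 and 121 CPM in PF mice 1 to 5, at 93.5, 99.96, 106, 106 and 101 in SO mice and at 97.6, 104, 104, 109 and 104 in LO mice. Every PF mouse was above every SO and LO mouse, with PF mouse 2 and LO mouse 4 almost equal. The fold change was 0.29 for PF against SO (SE 0.08, p 0.0032, adjusted p 0.320 by edgeR) and 0.25 for PF against LO (SE 0.08, p 0.0086, adjusted p 0.402), and at 12 weeks it was 0.06 and 0.07. Both values at 32 weeks include PF mouse 1, at 149 CPM beside 109 to 121 in the other PF mice, and would be smaller without it. Ndufaf4, an assembly factor of complex I, was next at 0.35 for PF against SO (SE 0.11, p 0.0052, adjusted p 0.349). Among those lower in PF mice were mt-Atp8 at -0.30 and mt-Nd5 at -0.13. Groups did not overlap for 5 members in PF against SO mice, beside 2.18% of all genes. These were Uqcrfs1, Ndufb3, Cox7a2l, Ndufc1 and, chosen after its values were seen, Ndufb5, each higher in PF mice.

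Ndufb3, a subunit of the membrane arm of complex I, was at 61.6, 41.99, 42.97, 41.8 and 44.1 CPM in PF mice and 37.1, 37.2, 37.3, 40.2 and 40.3 in SO mice at 32 weeks. Cox7a2l, listed with complex IV by its symbol, was at 346, 254, 239.7, 249.8 and 259.6 CPM in PF mice and 223, 204, 228, 201 and 232 in SO mice. In both genes mouse 1 was far above the rest of the PF group, and the other 4 PF mice were above the SO mice by a narrower margin.

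The comparison of PF with LO mice gave no call at 32 weeks either, where 0 of 103 members and 0% of all genes were called by edgeR's quasi-likelihood test and Benjamini-Hochberg adjustment. Under 0.05 unadjusted were 7 members and 8.60% of all genes, and DESeq2 called 0, with 12 under 0.05, and 0.585% of all genes. The nuclear median was 0.19, with 83 of 91 higher in PF mice, and the mitochondrial median 0.17, with 10 of 12 higher. Without PF mouse 1 the nuclear median was 0.0055, with 47 of 91 higher and 3 under 0.05, beside 8.24% of all genes in that fit. Groups did not overlap for Uqcrfs1 alone, beside 1.13% of all genes. Ndufc1 had the next smallest p at 0.33 (SE 0.12, p 0.014, adjusted p 0.461), and Cox6a2 at -1.42 (SE 1.24) and Ndufaf6 at -0.11 led those lower in PF mice. The direction for Cox6a2 rests on LO mouse 1, which had 180 counts, the most of any library. By the counts given later, the mean count of the other LO mice was below that of the PF mice.

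In LO against SO mice at 32 weeks, edgeR's quasi-likelihood test called 0 of 103 members and 0% of all genes after Benjamini-Hochberg adjustment, with 0 members and 3.48% of all genes under 0.05 unadjusted. DESeq2 also called 0, with 0 under 0.05, and 0.0234% of all genes. The groups overlapped for every member and did not for 0.641% of all genes. The nuclear median was 0.05, with 81 of 91 higher in LO mice, and the mitochondrial median -0.17, with 0 of 12 higher. Over all settings run the nuclear median lay between 0.02 and 0.08 and the mitochondrial median between -0.20 and -0.05. Without SO mouse 4 the mitochondrial median was -0.05, and still 0 of 12 were higher in LO mice. Cox4i2 at 0.73 (SE 0.41) and Cox8b at 1.14 (SE 0.83) led those higher in LO mice, and mt-Nd3 at -0.28 (SE 0.17) and mt-Nd1 at -0.18 (SE 0.11) those lower. The Cox8b value rests largely on LO mouse 1, far above its group at 2.82 CPM. The Cox4i2 value includes SO mouse 5, far below its group by the levels given later.

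The precision allowed fold changes of the usual member to be bounded. At 12 weeks the 95% interval lay within a 2-fold change either way for 85 of 89 nuclear members in PF against SO mice, for 84 in PF against LO and for 85 in LO against SO. At 32 weeks it did so for 79, 79 and 82 of 91 in the same order. The median SE was 0.09 at 12 weeks and 0.14 at 32 weeks for the nuclear members, beside 0.14 and 0.16 for all genes. The members were thus measured at least as closely as the usual gene, and an interval that holds 0 does not show that a level did not differ.

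**Figure D3:**
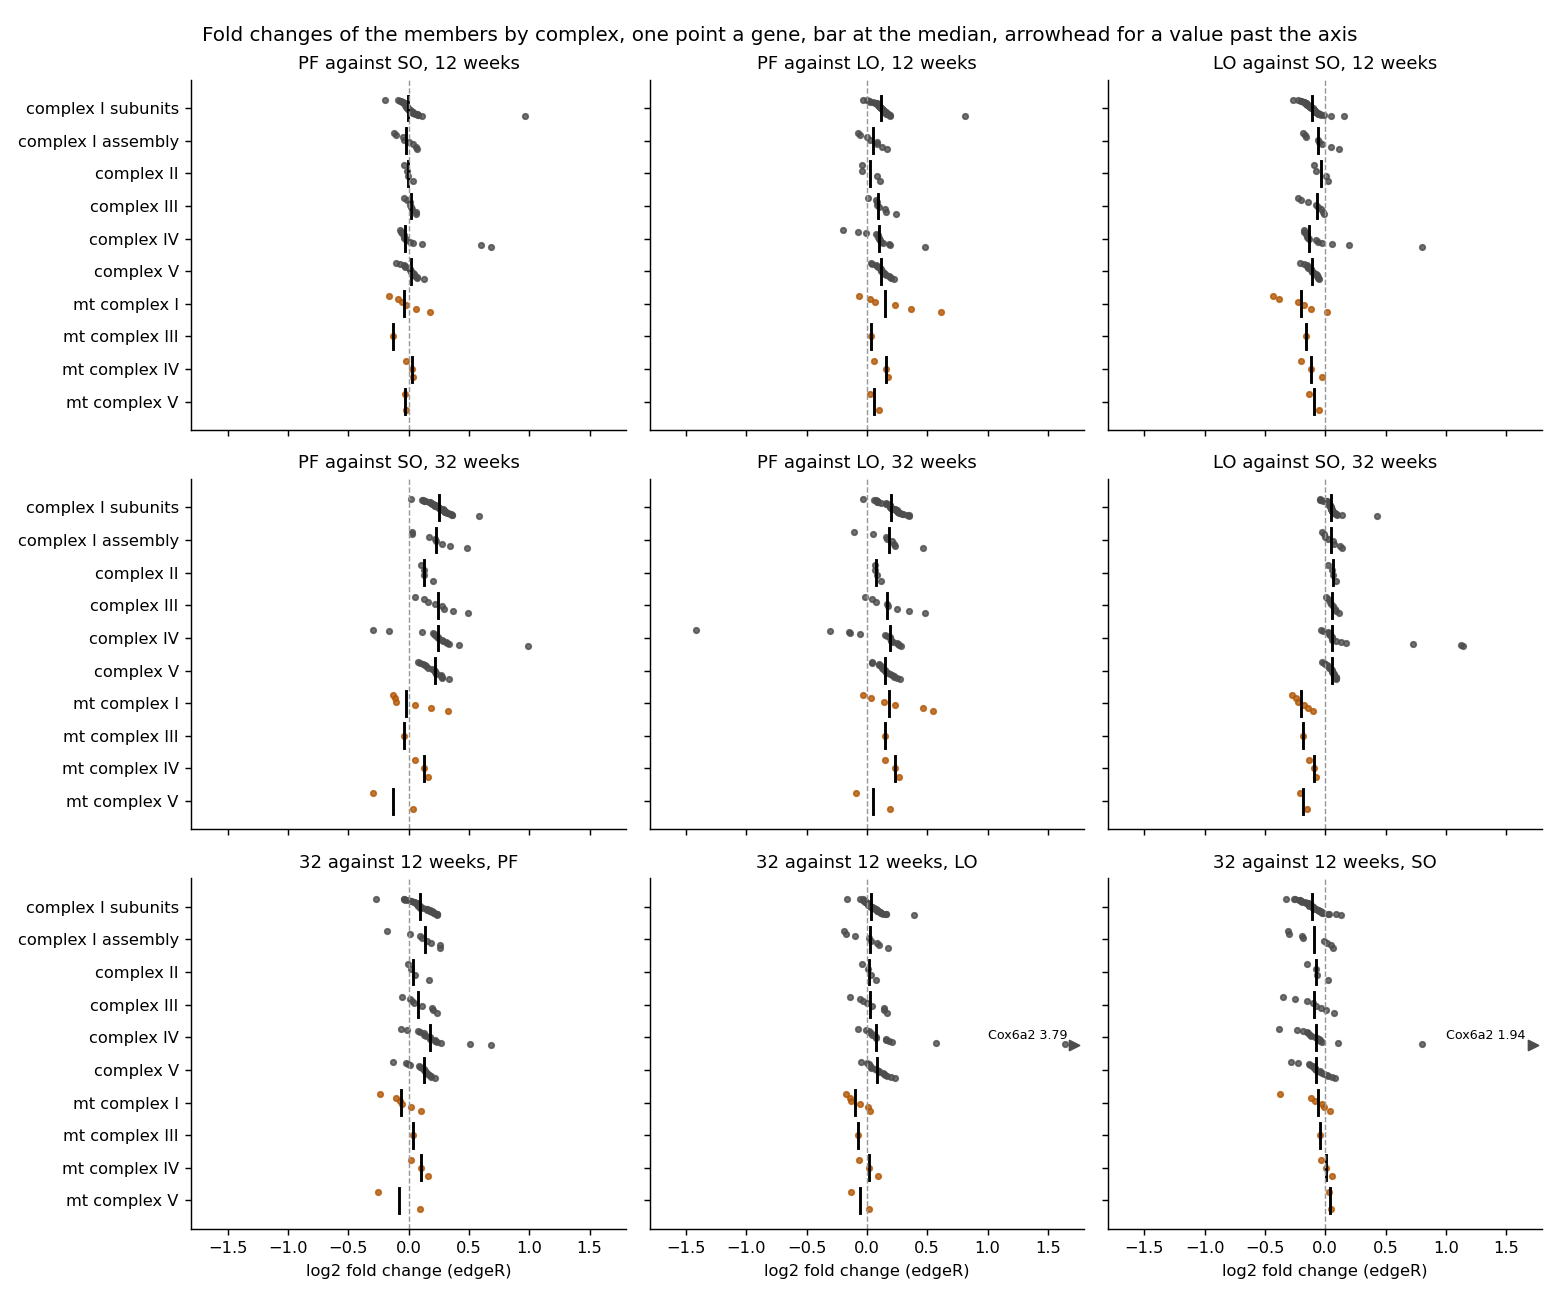
Log2 fold changes from edgeR of the members by complex in the 6 diet comparisons and 3 time comparisons, with 1 point a gene, a bar at the median and an arrowhead for a value past the axis. The nuclear medians of PF against SO at 32 weeks lie between 0.13 and 0.25 with all mice, and the median over nuclear members was 0.05 without PF mouse 1.

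The time points were compared within each diet, over 16605 genes in 1 fit of all 30 mice. In LO mice edgeR called 1 of 103 members, which rose, beside 2.7% of all genes, and the gap between these shares was not tested. Under 0.05 unadjusted were 3 members (2.91%) beside 20.5% of all genes. The nuclear median was 0.04 and the mitochondrial median -0.06, beside -0.01 for all genes. Over all settings run the nuclear median lay between 0.01 and 0.10 and the mitochondrial median between -0.11 and 0.01. Groups did not overlap for 3 members, Cox4i2, Atp5g3 and Cox6b1, each higher at 32 weeks, beside 4.25% of all genes. DESeq2 called 2 members, Cox4i2 and Cox6a2, with 3 under 0.05 unadjusted, and 6.56% of all genes. Mouse 1 of 32 weeks had 180 counts of Cox6a2 and the other 4 mice of its group 2 to 8.

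Cox4i2, on build GRCm38 at chr2:152754173-152765037 on the plus strand, encodes the form of subunit 4 known from lung and from cells that sense low oxygen. In LO mice 1 to 5 it was at 0.205, 0.126, 0.108, 0.104 and 0.152 CPM at 12 weeks and 0.732, 0.41, 0.429, 0.368 and 0.269 at 32 weeks. Every mouse at 32 weeks was above every mouse at 12 weeks. In SO mice it was at 0.268, 0.246, 0.362, 0.214 and 0.494 CPM at 12 weeks and 0.389, 0.268, 0.393, 0.270 and 0.0294 at 32 weeks, and in PF mice at 0.259, 0.308, 0.315, 0.166 and 0.202 and then 0.375, 0.314, 0.338, 0.284 and 0.469. The LO mice at 12 weeks were all below the SO mice of that time and overlapped the PF mice, and at 32 weeks LO overlapped both other diets. These levels rest on few reads, 8, 4, 3, 4 and 5 counts in LO mice at 12 weeks and 28, 16, 14, 12 and 8 at 32 weeks.

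The fold change of Cox4i2 in LO mice was 1.64 (SE 0.38, 95% interval 0.86 to 2.42, adjusted p 0.0212 by edgeR), higher in 5 of 5 mice than in any mouse of 12 weeks. It was -0.24 in SO mice (SE 0.365) and 0.51 in PF mice (SE 0.36). The SO value includes mouse 5 of 32 weeks, which was far below its group. The time change in LO mice differed from that in SO mice by 1.87 (SE 0.53, p 0.0014) with an adjusted p of 0.9998, and that in PF mice from that in LO mice by -1.13 (SE 0.53, p 0.041, adjusted p 0.628), so neither difference passed. The call itself turned on single mice. Cox4i2 had an adjusted p of 0.066 without LO mouse 2 at 12 weeks, 0.069 without LO mouse 3 at 12 weeks, 0.0599 without LO mouse 1 at 32 weeks and 0.057 without LO mouse 3 at 32 weeks. Leaving out every mouse numbered 1, 2 or 3 gave 0.055, 0.135 and 0.209. Its counts passed the filter among all 30 mice and did not among the 10 LO mice alone, so that the fit of LO mice gave no test of it.

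Atp5g3, a gene of subunit c, was at 130, 133, 111, 121 and 111 CPM in LO mice at 12 weeks and 138, 139, 144, 145 and 144 at 32 weeks. Its groups did not overlap, and its fold change was 0.23 (SE 0.08, p 0.0076, adjusted p 0.0974). Cox6b1 was at 113, 110.04, 119, 129 and 120 CPM in LO mice at 32 weeks, again above every LO mouse of 12 weeks, with a fold change of 0.16 (SE 0.09, p 0.084, adjusted p 0.318).

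In SO mice edgeR's quasi-likelihood test called 0 of 103 members after Benjamini-Hochberg adjustment, beside 6.46% of all genes. Under 0.05 unadjusted were 0 members, beside 19.7% of all genes, and DESeq2 called 0, with 1 under 0.05, and 8.03% of all genes. The nuclear median was -0.09, with 17 of 91 higher at 32 weeks, and the mitochondrial median -0.02, which was -0.12 without SO mouse 4. Groups did not overlap for Atp5b alone, beside 7.43% of all genes. It was at 746, 747, 749, 765 and 783 CPM at 12 weeks and 696, 728, 742, 679 and 729 at 32 weeks, so all 5 mice of 32 weeks were just below those of 12 weeks. Atp5g1 had the smallest p at -0.28 (SE 0.14, p 0.053, adjusted p 0.262), followed by Ndufs5 at -0.21, and Cox6a2 at 1.94 (SE 1.30) and Cox7a1 at 0.81 (SE 0.56) led those higher at 32 weeks.

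In PF mice edgeR's quasi-likelihood test called 0 of 103 members after Benjamini-Hochberg adjustment, beside 0.0301% of all genes. Under 0.05 unadjusted were 11 members, all higher at 32 weeks, beside 10.2% of all genes, and DESeq2 called 0, with 15 under 0.05, and 0.295% of all genes. The groups overlapped for every member and did not for 1.55% of all genes. The nuclear median was 0.12, with 78 of 91 higher, and without PF mouse 1 of 32 weeks it was 0.0032, with 47 of 91 higher and 4 under 0.05, beside 11.9% of all genes in that fit. Ndufs3, a subunit of the arm of complex I that faces the matrix, was at 59.995, 57.6, 64.9, 65.4 and 70.3 CPM at 12 weeks and 93.7, 67.6, 71.0, 67.9 and 75.3 at 32 weeks. The groups overlapped, and mouse 1 was the highest by a wide margin at 32 weeks. Its fold change was 0.24 (SE 0.07, p 0.0026, adjusted p 0.272), that of Ndufaf1 0.26 (SE 0.09, p 0.0095), that of mt-Atp8 -0.25 and that of Ndufaf6 -0.18.

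Differences between diets in their time change were tested in the same fit. edgeR's quasi-likelihood test with Benjamini-Hochberg adjustment called 0 of 103 members and 0% of all genes for PF against SO, 0 and 0% for PF against LO, and 0 and 0% for LO against SO. Under 0.05 unadjusted were 5, 1 and 1 members in that order, beside 9.49%, 7.79% and 3.33% of all genes, and DESeq2 called 0 in each, with 6, 1 and 1 under 0.05, and 0.224%, 0.0702% and 0% of all genes. The nuclear medians were 0.21, 0.07 and 0.15 and the mitochondrial medians 0.05, 0.07 and -0.03. Without PF mouse 1 of 32 weeks the first nuclear median was 0.07 and the second -0.09, while the third does not compare that mouse. Over all settings run the mitochondrial medians ranged from -0.03 to 0.22, from -0.06 to 0.17 and from -0.07 to 0.12 in the same order, so none of them kept its sign. The smallest p for PF against SO were those of Cox7a2l at 0.35 (SE 0.13, p 0.012, adjusted p 0.349) and Ndufs3 at 0.27. mt-Atp8 at -0.28 and Cox7a1 at -0.87 led the other way. For PF against LO, Ndufaf4 was at 0.29 and Cox7a2l at 0.20, with Cox6a2 at -3.10 (SE 1.82) beside Cox4i2. The Cox6a2 value rests largely on LO mouse 1 of 32 weeks, which had 180 counts, the most of any library. For LO against SO, Ndufa1 was at 0.26, mt-Atp8 at -0.17 and mt-Nd5 at -0.13.

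The muscle and brown fat forms of complex IV subunits were high in a few mice of several groups. Cox6a2, the heart and muscle form of subunit 6a, had 2, 1, 0, 10 and 0 counts in LO mice 1 to 5 at 12 weeks, 6, 0, 14, 0 and 0 in SO mice and 11, 12, 1, 1 and 19 in PF mice. At 32 weeks it had 180, 2, 3, 8 and 6 counts in LO mice, 13, 4, 36, 30 and 2 in SO mice and 21, 1, 40, 1 and 1 in PF mice. LO mouse 1 at 32 weeks was far above all others. Its fold change for time in LO mice was 3.79, and mouse 1 of 32 weeks held most of the counts of that group.

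The 4 mice with the most counts of Cox6a2 also had the highest sums of striated muscle markers. All 8 genes of the striated muscle list matched, the most abundant was Acta1, and their sum was 623 CPM in LO mouse 1, 515 in PF mouse 3, 339 in SO mouse 3 and 308 in SO mouse 4, all at 32 weeks, beside a median of 104 and a lowest of 49.5 over all mice. Ckm, which encodes muscle creatine kinase, had 2671, 1046, 965 and 816 counts in those 4 mice. None of the 8 was at 0 over the 30 mice, though Pvalb had a median of at most 3 counts. At 12 weeks the highest sum was 174 CPM in LO mouse 1, which had few counts of Cox6a2. The part of striated muscle in the Cox6a2 values was not tested.

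Cox7a1 and Cox8b, forms known from heart, skeletal muscle and brown fat, were high in some of the same mice and in others. Cox8b had 8, 2, 114, 9 and 14 counts in LO mice at 12 weeks, 8, 1, 14, 47 and 20 in SO mice and 36, 14, 2, 7 and 91 in PF mice. LO mouse 3, PF mouse 5 and SO mouse 4 stood out. Later, at 32 weeks, it had 108, 6, 19, 23 and 11 counts in LO mice, 3, 5, 36, 27 and 2 in SO mice and 38, 31, 47, 7 and 18 in PF mice, with LO mouse 1, which had 0 counts of Ucp1 and the highest striated muscle sum, far above its group. Ucp1, the uncoupling protein of brown and beige fat, had 916, 455 and 282 counts in those 3 mice of 12 weeks, 134 in PF mouse 1 at 12 weeks and 0 to 17 in every other library. Cidea had 259 counts in LO mouse 3 and 284 in PF mouse 5. Cox7a1 had 55 counts in LO mouse 3 and 91 in PF mouse 5 at 12 weeks and 94 in LO mouse 1 at 32 weeks, beside 10 to 64 in the remaining libraries. The adipocyte list, all 6 of 6 matched and with Adipoq the most abundant, summed to 2.55 to 190 CPM with a median of 46.7, at 180.3 in LO mouse 3, 89.9 in PF mouse 5 and 40.5 in SO mouse 4 of 12 weeks. The highest sum was in SO mouse 5 of 12 weeks, which had 20 counts of Cox8b, so the list and Cox8b did not rank the mice alike. Their part in the Cox7a1 and Cox8b values was not tested.

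**Figure D4:**
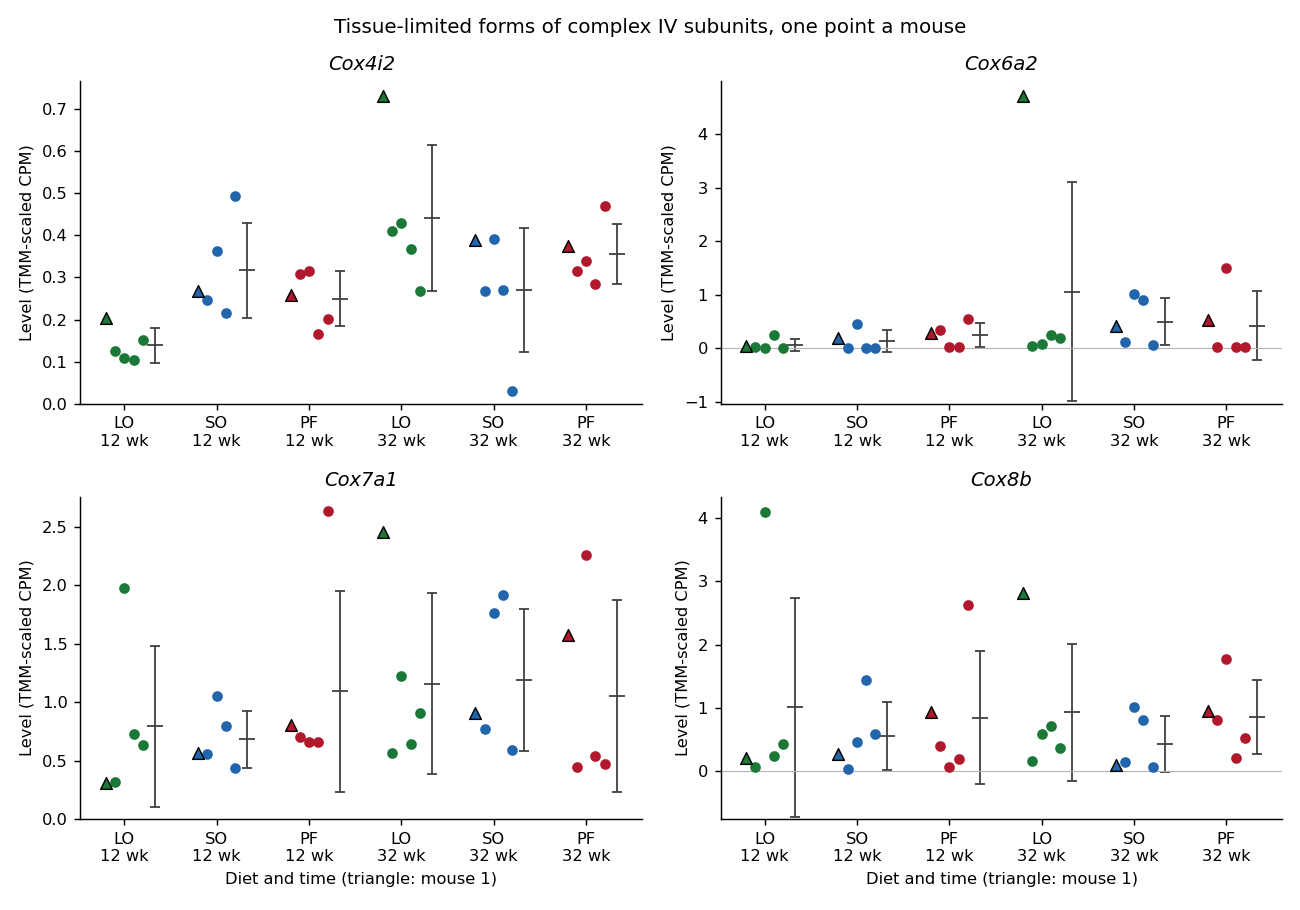
Level of Cox4i2, Cox6a2, Cox7a1 and Cox8b in TMM-scaled CPM by diet and time, with 1 point a mouse, mouse 1 as a triangle, and bars for the mean and SD of 5 mice. Cox6a2 is highest in LO mouse 1 at 32 weeks at 4.71 CPM, Cox8b in LO mouse 3 at 12 weeks at 4.10 CPM, and Cox4i2 is lowest in the LO mice of 12 weeks as a group.

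Among the members, spread between mice of a group was widest for Cox8b, with a within-group SD of 0.87 log2 units, then Uqcrq at 0.78, Ndufaf8 at 0.77, Cox6a2 at 0.76 and mt-Nd6 at 0.73. It was narrowest for Sdhc at 0.08. Ndufaf8 is named here for its spread, after its values were seen. For Uqcrq most of the spread lay between mouse 1 and the others in every group. Uqcrq was at 52.6, 17.6, 23.2, 15.5 and 14.6 CPM in LO mice 1 to 5 at 12 weeks, 65.6, 17.5, 16.9, 17.6 and 26.8 in SO mice and 52.1, 21.1, 22.0, 28.2 and 21.8 in PF mice. At 32 weeks it was at 53.4, 15.7, 18.1, 17.3 and 16.5 in LO mice, 52.6, 14.9, 19.1, 16.9 and 18.1 in SO mice and 92.8, 17.0, 17.7, 18.6 and 19.9 in PF mice. Mouse 1 was the highest in all 6 groups and never overlapped the rest.

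Cox6a1, the widespread form of subunit 6a, had the same order on a smaller scale. It was at 108, 61.3, 73.6, 65.9 and 56.0 CPM in LO mice, 124, 68.4, 70.5, 70.3 and 78.8 in SO mice and 97.4, 67.3, 76.8, 80.1 and 72.7 in PF mice at 12 weeks. At 32 weeks it was at 107, 62.9, 73.1, 73.2 and 68.4 in LO mice, 101, 56.5, 68.9, 66.4 and 78.8 in SO mice and 163, 65.9, 60.8, 67.1 and 74.2 in PF mice. Mouse 1 again led each group.

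mt-Nd6, the protein gene of the light strand, went the other way in most groups. It was at 8.42, 32.0, 27.6, 31.8 and 40.7 CPM in LO mice, 13.2, 54.0, 44.1, 42.3 and 35.9 in SO mice and 34.5, 32.8, 61.6, 42.6 and 42.9 in PF mice at 12 weeks. At 32 weeks it was at 12.0, 35.0, 36.8, 23.5 and 17.5 in LO mice, 8.79, 27.8, 54.5, 28.6 and 26.8 in SO mice and 21.5, 60.7, 37.5, 23.5 and 38.2 in PF mice. Mouse 1 was the lowest in each group but PF at 12 weeks, where mouse 2 was.

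Of the 91 nuclear members tested, 29 (31.9%) were highest in mouse 1 in 5 or 6 of the 6 groups. They were 14 of 38 complex I subunits, 2 of 8 of its assembly factors, 1 of 4 in complex II, 4 of 8 in complex III, 6 of 16 in complex IV and 2 of 17 in complex V. Of the 12 mitochondrial members, 0 were. Among all 16605 genes tested, 2361 (14.2%) were highest in mouse 1 in 5 or 6 groups, while the counts for numbers 2 to 5 were 36, 22, 8 and 33. Lowest in mouse 1 in 5 or 6 groups were 1134 (6.83%) of all genes, 3 of the 91 nuclear members and 1 of the 12 mitochondrial ones. So the pattern ran through the table and was not limited to the members. The 29 members had a median GC content of 54.4% in the longest transcript, the other 62 nuclear members 48.9%, the mitochondrial members 36.55% and all genes 49.7%, and the median length of those transcripts was 861, 1306, 870.5 and 3135 bases. The labels give no meaning to the numbers, and the part of GC content and length in the pattern was not tested. Since each group has a mouse 1, the pattern adds to the spread within every group. The nuclear median of mouse 1 against the other 4 was 0.07 in LO, 0.18 in SO and -0.10 in PF mice at 12 weeks and 0.0007, 0.03 and 0.56 at 32 weeks, so PF mouse 1 at 32 weeks differed from the other mice numbered 1 as well.

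**Figure D5:**
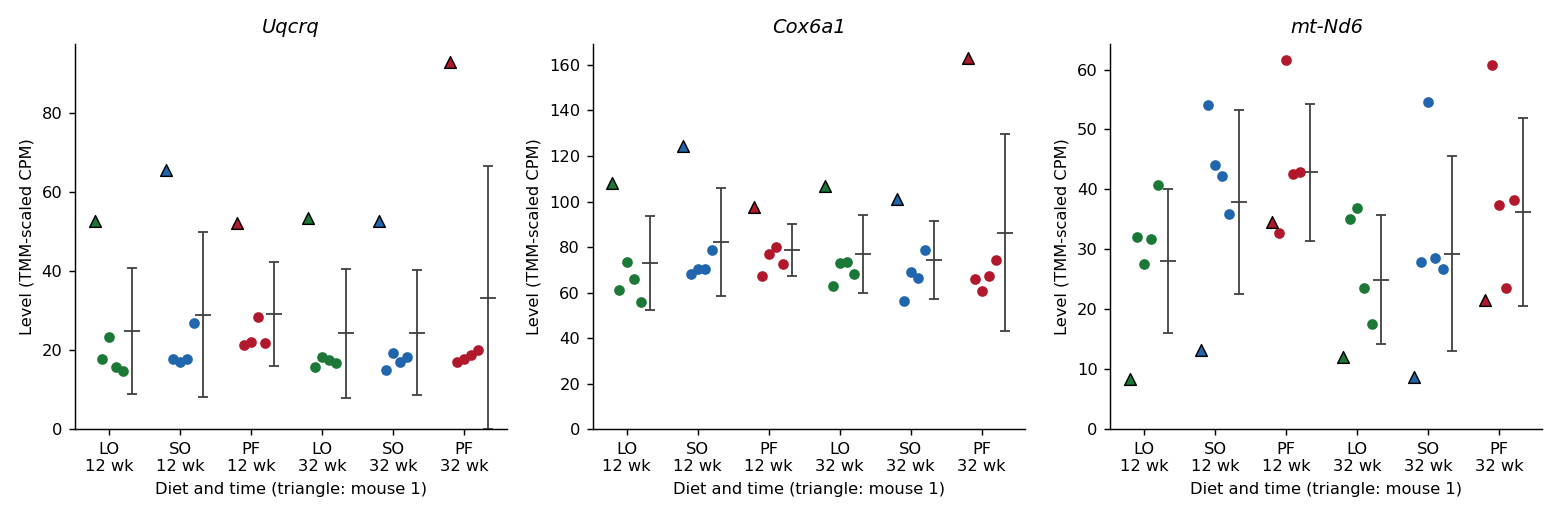
Level of Uqcrq, Cox6a1 and mt-Nd6 in TMM-scaled CPM by diet and time, with 1 point a mouse, mouse 1 as a triangle, and bars for the mean and SD of 5 mice. Uqcrq is at least 52.1 CPM in each mouse 1 and at most 28.2 CPM in every other mouse.

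Other genes of the pathway were read from lists of the tricarboxylic acid cycle, the mobile carriers, assembly factors of complexes II to V, mitochondrial DNA and RNA upkeep, regulators, transport, mitochondrial ribosomal proteins and mitochondrial ribosomal RNA. In the 6 diet comparisons, in PF mice over time and in the 3 differences of time changes, edgeR called 0 genes of any list. In LO mice over time it also called 0. In SO mice over time it called 4, all lower at 32 weeks and chosen here because they were called. Of the 10 mobile carrier genes these were Coq4 at -0.39 (SE 0.12, adjusted p 0.0405) and Coq9 at -0.30 (SE 0.09, adjusted p 0.0338), which serve the making of ubiquinone. Of the 31 assembly factors it was Sdhaf3 at -0.34 (SE 0.11, adjusted p 0.0461), and of the 76 ribosomal proteins tested Mrpl10 at -0.26 (SE 0.07, adjusted p 0.0350). The background in SO mice over time was the 6.46% of all genes given above.

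The smallest p in each list were taken from LO mice over time, where the members had their call. In the tricarboxylic acid cycle they were Ogdh at -0.18, Dld at -0.14 and Idh3b at 0.05, and among the carriers Coq3 at 0.28, Coq9 at -0.24 and Coq5 at -0.15. Among assembly factors they were Cox10 at -0.35, Sdhaf3 at -0.27 and Atpaf2 at -0.20, and for mitochondrial DNA and RNA Tfb2m at -0.16, Polg at -0.14 and Supv3l1 at -0.12. These shifts were small and in both directions. Among regulators they were Pprc1 at -0.42, Yy1 at -0.09 and Gabpb1 at 0.08, and among transporters Ucp1 at -7.94, Slc25a4 at 0.28 and Atpif1 at 0.24. For the ribosome they were Mrps5 at -0.25, Mrps35 at 0.23 and Mrpl10 at -0.19, with the RNA genes mt-Rnr1 at 0.29 and mt-Rnr2 at 0.13. The Ucp1 value rests on LO mouse 3 at 12 weeks and its 916 counts.

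The mitochondrial ribosomal proteins had positive medians in the same comparisons at 32 weeks as the nuclear members. In PF against SO mice at 32 weeks 75 of 76 were higher in PF mice, with a median of 0.21, and in PF against LO 76 of 76, with a median of 0.16, and these comparisons share the PF mice. Without PF mouse 1, a setting chosen after the data were seen, 58 of 76 were higher against SO with a median of 0.07 and 45 of 76 against LO with a median of 0.03. edgeR called 0 genes of the list either way. Their summed level was highest in PF mouse 1 at 32 weeks at 2634 CPM, beside 1769 to 1930 in the other 4 mice of its group and a median of 1847 over all mice. The summed level of the 10 regulators was lowest in the same mouse at 251 CPM, beside a median of 316. The 13 tricarboxylic acid cycle genes did not set it apart, at 1256 CPM beside a median of 1246. Ribosomal RNA of the mitochondrion summed to 1652 CPM in SO mouse 5 at 32 weeks and 149 to 369 in all other mice.

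Levels of cell type markers also differed between the times. The VP secretion sum averaged 244695 CPM in LO, 277730 in SO and 259405 in PF mice at 12 weeks and 146661, 155652 and 240154 at 32 weeks. Most of the secretion sum was Sbp, at a mean of 169765 CPM. Without PF mouse 1 of 32 weeks, 2 of the 4 secretion genes were higher over time in PF mice, with a median of 0.11. The luminal epithelium sum had higher means at the later time, from 4657 ± 1786, 4664 ± 1631 and 4691.5 ± 528 CPM to 5977 ± 2166.3, 5706 ± 1741 and 6845 ± 1083. Most of that sum was Pbsn, at a mean of 3469 CPM. Over the 6 genes of that list the medians were 0.16 in LO, 0.13 in SO and -0.04 in PF mice, with 4, 4 and 2 higher at 32 weeks and 0 called in any diet. The basal sum was 91.2, 94.8 and 112 CPM at 12 weeks and 182, 141 and 121 at 32 weeks. In LO mice over time edgeR called Sbp at -0.81 (adjusted p 0.0410) and the basal genes Krt5, Trp63 and Krt15 at 0.90, 0.64 and 1.24 (adjusted p 0.0174, 0.0123 and 0.0046). In SO mice it called Sbp at -0.96 (adjusted p 0.0100), Trp63 at 0.44 (adjusted p 0.0332) and Krt15 at 0.72 (adjusted p 0.0180), and not Krt5 at 0.46 (adjusted p 0.179). The leukocyte genes Ptprc, Cd68, Adgre1 and Cd3e were called in SO mice at 1.85, 1.22, 1.23 and 1.91 (adjusted p 0.0050, 0.0293, 0.0154 and 0.0173). In LO mice they were at 0.86, 0.97, 0.93 and 0.63 and were not called (adjusted p 0.167, 0.0976, 0.0772 and 0.472). Whether cells of a type or RNA per cell changed cannot be told apart, and the part of these markers in the members' time changes was not tested.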

How the data were processed

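The sample records name TRIzol for the extraction of RNA and the study's methods a silica column kit, and which was used here is not known. Libraries were made with a stranded messenger RNA kit from samples with an RNA integrity number above 8, and reads were sequenced on an Illumina instrument. The deposited files hold raw counts per gene, which the authors made with TopHat2, TopHat and HTSeq on GRCm38.p6, with no versions, strand setting or annotation release given in the sources used here. Depth per sample, which sets the precision, was 27590631 to 41301707 counts. Symbols came from GENCODE on GRCm38. Genes were filtered with filterByExpr, scaled by TMM and tested by edgeR 4.0.16 (glmQLFit and glmQLFTest, limma 3.58.1, R 4.3.3), with Benjamini-Hochberg adjustment over all genes tested and a threshold of 0.05. Diets were compared among the 15 mice of a time point, and times and differences of time changes among all 30. The p-values measure spread between mice. Tables and figures used Python 3.11.15, pandas 2.3.3, numpy 2.4.6 and matplotlib 3.10.9, and the code was tested on simulated data. Alternatives were DESeq2 1.42.0, RLE factors, no filter, other genes or groups in the fit, the mouse number as a block, and leaving out mice. Genes named are all mitochondrial members, the highest and lowest of each nuclear class per length, tissue forms with their partners, up to 4 called members each way in a comparison or else the 2 with the smallest p each way, and the 3 with the smallest p in each further list. Members and lists were chosen with earlier results of these data known. Cyc1 and other genes outside the symbol rule were left out of the members.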

Additional observations from a re-analysis of the deposited data

Results flagged for a closer look

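Some values lay far from the other 4 mice of their group, by the gap to the nearest mouse as a share of the group's range, a test that chance meets in about 1 in 20 groups. This held for 3 of 18 groups of the summed levels and their ratio, and for 31 of 270 groups of named members. Of the values of named members 10 were in PF mouse 1 and 6 in LO mouse 1, both at 32 weeks.

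The summed nuclear level of PF mouse 1 at 32 weeks was far above its group at 10256 CPM. The ratio of mitochondrial to nuclear sums was far below the others in LO mouse 1 at 12 weeks at 5.97 and far above them in SO mouse 3 at 12 weeks at 7.39.

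In PF mouse 1 at 32 weeks these genes were far above the other 4 mice: Atp5g1 at 105, Cox4i1 at 461, Cox6a1 at 163, Cox7a2l at 346, Cox8a at 218, Ndufb3 at 61.6, Ndufc1 at 33.7, Sdhb at 92.5 and Uqcrq at 92.8 CPM. mt-Nd5 was far below them at 1808 CPM in the same mouse.

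In LO mouse 1 at 32 weeks Atp5g1 was far above its group at 77.3, Cox6a1 at 107, Cox6a2 at 4.71, Cox6b2 at 4.21, Cox8b at 2.82 and Uqcrq at 53.4 CPM. In LO mouse 1 at 12 weeks Cox8a was high at 154 and Uqcrq at 52.6 CPM. In SO mouse 1 at 12 weeks Cox6a1 was high at 124 and Uqcrq at 65.6 CPM, while Ndufaf1 was low at 10.7 CPM. In SO mouse 1 at 32 weeks Uqcrq was high at 52.6 and Ndufc1 low at 18.3 CPM. In PF mouse 1 at 12 weeks Uqcrq was high at 52.1 CPM. Uqcrq was thus far above the rest in mouse 1 of all 6 groups.

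In LO mouse 3 at 12 weeks Cox7a1 was far above its group at 1.98, Cox8b at 4.1 and mt-Nd1 at 2480 CPM. Cox7a1 was high in PF mouse 5 at 12 weeks at 2.63 CPM, Cox6a2 in LO mouse 4 at 12 weeks at 0.26 CPM, Ndufa1 in PF mouse 4 at 12 weeks at 109 CPM, and mt-Nd2 in SO mouse 4 at 32 weeks at 2760 CPM.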

How the results depend on the processing

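The number of members called was recomputed 294 times over 12 comparisons and 42 settings. In the 11 comparisons with 0 members called it was 0 under every alternative run, all by the named tools, which says nothing of differences too small for 5 mice a group. For time in LO mice, where 1 member was called, DESeq2 called 2, and the fit of the LO groups alone called 0, since Cox4i2 did not pass its filter. Leaving out mice gave 0 to 1. It gave 0 without LO mouse 2 or 3 of 12 weeks, without LO mouse 1 or 3 of 32 weeks, and without all mice numbered 2 or 3. Without all mice numbered 1 the member called was Atp5g3. The fold change of Cox4i2 ranged from 1.40 to 1.84 over its alternatives, and its adjusted p from 0.0067 with DESeq2 to 0.209 without the mice numbered 3. Its fold change stayed positive in all 21. The nuclear median changed sign in 6 of 22 settings for PF against SO at 12 weeks, 1 of 22 for PF mice over time and 2 of 32 for the time change of PF against LO, and in 0 for the other 9 comparisons. Mitochondrial medians changed sign in 0 to 10 settings a comparison. The median of the mitochondrial ribosomal proteins was also fitted without PF mouse 1 of 32 weeks, an alternative chosen after seeing the data, and moved from 0.21 to 0.07 against SO and from 0.16 to 0.03 against LO at 32 weeks.

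The numbers of the mice were looked at as a possible pairing. Mice numbered 1 correlated with one another in all 15 pairs (r 0.306 to 0.638) after group means were removed. For numbers 2 to 5 there were 7, 8, 5 and 6 of 15 pairs above 0.1, with median r of 0.07, 0.10, 0.01 and 0.08. Pairs of different numbers passed 0.1 in 89 of 300, with a median r of -0.03. No test was made of these counts, so whether numbers 2 to 5 pair the mice is not known. With the number as a block, edgeR called 1 member in LO mice over time and 0 elsewhere, and the fold change of Cox4i2 was 1.62 (adjusted p 0.0225).

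Medians over the nuclear members moved by more than their spread between mice in 9 of 294 results, each without PF mouse 1 of 32 weeks or without all mice numbered 1. Low counts limit Cox4i2, Cox6a2, Cox7b2, Cox8c and mt-Nd4l, and 5 mice a group limit all tests. The part of overlapping genes, of reads with several alignments and of the unknown strand setting in the mitochondrial levels was not tested. Age, batch and time cannot be told apart, and the mouse numbers have no stated meaning.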
